A study of Mus musculus with 8 samples.

Results

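Adipocytes store fat as triglyceride and secrete hormones, and 10 genes that mark these cells were followed across the ascending aorta of Fbn1mgR/mgR and wild-type mice: Pparg, Plin1, Cidec, Lipe, Pnpla2, Fabp4, Adipoq, Retn, Lep and Cfd. They were chosen by name, with earlier results of these data known. Each was read from the brightest transcript cluster (a group of probes that the array design assigns to a transcribed locus, called a row here) that the platform annotation gives this gene symbol alone. Of the 10 genes, 9 had such a row among 65956 rows in all, and Cfd was not analysed here. Lep lay below the filter on dim rows, which left 8 genes in the test.

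The data came from 8 Affymetrix Clariom D mouse arrays hybridised with total RNA of snap-frozen ascending aorta from male mice 10 weeks old. The first group held 4 arrays from Fbn1mgR/mgR mice (mgR611, mgR612, mgR613 and mgR614), which are homozygous for the mgR allele of Fbn1, the fibrillin-1 gene. The second held 4 arrays from wild-type mice (WT675, WT676, WT742 and WT744). Both came from crosses of Fbn1mgR/+ heterozygotes on a C57BL/6J background. The allele lowers fibrillin-1 in every tissue that makes it and is used as a model of severe Marfan syndrome. The labels give no number of animals per array, and a p-value here covers no more than the variation among these 8 samples, part of which may be technical. The Fbn1 transcript itself was not analysed here, and the sources used here do not say how much surrounding fat was left on the vessel. Array medians lay between 3.95 and 4.07 on the log2 scale. Precision is limited by the small number of arrays.

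In fat cells, the nuclear receptor PPARγ, made from Pparg, acts with C/EBP transcription factors to switch on genes of lipid storage and of secreted adipokines. The droplet proteins perilipin-1 and CIDEC cover and enlarge the fat store, while the lipases made from Pnpla2 and Lipe release fatty acids from it. The aorta is wrapped in perivascular fat, and around the mouse thoracic aorta this fat resembles brown adipose tissue, which burns fat for heat. In bulk RNA, fewer fat cells and less RNA per fat cell cannot be told apart.

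Promoter windows of 3 genes, Pparg, Plin1 and Lep, are shown as examples of windows that hold a C/EBP-type sequence, since C/EBP factors are known regulators of fat cells. They are taken from RefSeq (build GRCm38.p6), run from 250 bases before a transcription start to 50 after it, and are printed on the gene's own strand. Capitals mark TTGCNNAA, a C/EBP-type sequence, searched on both strands, so that TTNNGCAA counts as well; a place that matched on both was counted once. Windows were found for 9 of the 10 genes, all except Fabp4. The sequence occurred in 4 of their 13 windows and in 10.8% of all 32851 windows of the same length, and it was present for Pparg, Plin1, Cidec and Lep. The Pparg window shown is 1 of 3, and the other windows of this gene held no match. In the Pparg window at chr6:115421816-115422115 (plus strand) the matches begin at -215 and -16 relative to the start, in the Plin1 window at chr7:79732727-79733026 (minus strand) at -187 and -58, and in the Lep window at chr6:29059971-29060270 (plus strand) at -55. A match describes the letters in the window and was not tested as a binding site.
Pparg: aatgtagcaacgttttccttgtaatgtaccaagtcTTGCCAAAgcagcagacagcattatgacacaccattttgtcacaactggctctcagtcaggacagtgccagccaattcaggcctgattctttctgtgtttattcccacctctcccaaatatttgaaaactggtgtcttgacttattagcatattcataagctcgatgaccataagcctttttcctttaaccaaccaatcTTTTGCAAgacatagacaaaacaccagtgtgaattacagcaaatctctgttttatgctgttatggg
Plin1: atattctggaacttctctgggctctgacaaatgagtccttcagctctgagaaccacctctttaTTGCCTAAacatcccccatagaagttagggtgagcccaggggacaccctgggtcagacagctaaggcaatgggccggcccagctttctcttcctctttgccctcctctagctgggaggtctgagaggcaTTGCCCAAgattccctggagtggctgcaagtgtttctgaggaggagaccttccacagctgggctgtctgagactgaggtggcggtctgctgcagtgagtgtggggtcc
Lep: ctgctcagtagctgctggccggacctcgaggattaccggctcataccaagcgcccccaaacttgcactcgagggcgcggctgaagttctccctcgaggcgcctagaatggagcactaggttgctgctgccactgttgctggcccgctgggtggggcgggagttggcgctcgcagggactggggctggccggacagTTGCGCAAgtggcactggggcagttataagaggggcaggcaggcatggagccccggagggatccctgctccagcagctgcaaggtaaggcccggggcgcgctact

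Within each genotype, the same array had the highest signal for every measured adipocyte gene. The arrays mgR614 and WT676 were the 2 highest of the 8 for all 9 measured genes, and these arrays were also the 2 highest for 5.23% of the 32957 rows tested. WT744 was the third for 8 of the 9 genes, Lep being the exception, and mgR611 was the lowest mutant array for all 9. The values of the genotypes overlapped for every one of the 9 genes. Over all tested rows, which leave out Lep, they did not overlap for 8.92% (mutant higher for 5.26%, mutant lower for 3.65%). At that share, overlap in all 9 genes, which move together, does not set them apart from other rows. No adipocyte gene passed the threshold between Fbn1mgR/mgR and wild-type aorta in limma, with 0 of 8 higher and 0 of 8 lower at an adjusted p under 0.05, where 1.4% of all tested rows were higher, 0.464% lower and 1.86% either. These shares stand for 460 higher and 153 lower rows; when 1 array was left out the counts were 209 (without WT675) to 441 higher and 56 (without WT744) to 121 lower. The higher count moved by over 1.5 times without mgR613 (248), mgR614 (257), WT675 (209), WT676 (244), WT742 (251) or WT744 (222), and the lower count without mgR611 (86), mgR613 (73), mgR614 (84), WT675 (68) or WT744 (56). Also at an unadjusted p under 0.05 the count was 0 in both directions, against 7.59% higher and 6.68% lower of all tested rows. The spread among arrays of the same genotype was much wider than these differences, and the 95% intervals of the tested genes had a lowest bound of -2.21 (Retn) and a highest of 2.29 (Pparg) on the log2 scale.

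Values below are log2 signals in the order mgR611, mgR612, mgR613 and mgR614 for the mutant and WT675, WT676, WT742 and WT744 for the wild-type, and differences are Fbn1mgR/mgR minus wild-type with limma's adjusted p over all 32957 rows. Pparg, the regulator of fat cell identity, had 7.22, 7.23, 7.46 and 9.59 in the mutant, against 6.35, 9.63, 6.13 and 7.76 in the wild-type. The high mutant and the high wild-type array nearly coincided, while the other mutant arrays lay in a narrow band and the other wild-type arrays were spread below and above it. Its mean was 7.88 ± 1.15 in the mutant and 7.47 ± 1.61 in the wild-type (SD, n = 4 each), a limma difference of 0.41 (SE 0.83, 95% interval -1.47 to 2.29, adjusted p = 0.892). Pparg is also made by macrophages, and the mean of 13 macrophage markers ranged from 9.73 to 10.59 in the mutant against 7.87 to 8.38 in the wild-type arrays; the part of these cells in the Pparg signal was not tested.

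Plin1, which encodes the protein that coats lipid droplets and controls access of lipases, had 5.54, 6.24, 6.03 and 7.67 in the mutant, against 5.91, 8.57, 5.81 and 6.62 in the wild-type. Its highest value stood in WT676, and WT744 lay between that array and the low wild-type pair. The means were 6.37 ± 0.92 in the mutant and 6.73 ± 1.28 in the wild-type (SD, n = 4 each), with a limma difference of -0.36 (SE 0.66, 95% interval -1.85 to 1.14, adjusted p = 0.880). Cidec, whose product fuses small droplets into large ones, had 5.53, 6.00, 5.69 and 7.66 in the mutant, against 5.66, 8.08, 5.69 and 6.57 in the wild-type. It repeated the order of Plin1 among the wild-type arrays, apart from a near tie of WT675 and WT742. The difference was -0.28 (SE 0.63, 95% interval -1.71 to 1.15, limma adjusted p = 0.902).

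Pnpla2, which encodes the lipase ATGL that makes the initial cut in stored triglyceride, had 8.25, 8.59, 8.66 and 10.39 in the mutant, against 8.70, 11.29, 8.60 and 9.55 in the wild-type. The mean was 8.97 ± 0.96 in the mutant and 9.54 ± 1.25 in the wild-type (SD, n = 4 each), and the difference of -0.56 was the most negative of the 8 (SE 0.66, 95% interval -2.06 to 0.94, limma adjusted p = 0.787). Lipe, which encodes hormone-sensitive lipase, had 5.67, 5.96, 5.75 and 7.14 in the mutant, against 5.81, 8.25, 5.74 and 6.65 in the wild-type. For both lipases the highest wild-type array stood clearly above the highest mutant array, while the low arrays of the genotypes were close together. The Lipe difference was -0.48 (SE 0.57, 95% interval -1.77 to 0.81, limma adjusted p = 0.787). Fabp4, the fatty acid carrier of fat cells that is also found in capillary endothelium and macrophages, was the brightest of the set, with 11.38, 11.72, 11.80 and 14.39 in the mutant against 11.41, 14.24, 11.40 and 12.65 in the wild-type. In the mutant all arrays except mgR614 lay within a narrow band, and the genotypes had almost the same level, with a difference of -0.10 (SE 0.81, 95% interval -1.94 to 1.73, limma adjusted p = 0.978). Brightness is not compared between genes as abundance, because each row has its own probes.

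Adipoq, which encodes adiponectin, a hormone made by fat cells that raises insulin sensitivity, had 7.10, 8.39, 7.75 and 10.82 in the mutant, against 7.30, 10.64, 7.16 and 9.01 in the wild-type. It spanned 13.2-fold between the lowest and the highest mutant array, the widest mutant range of the set, and 11.2-fold between the wild-type arrays. The means of 8.52 ± 1.62 in the mutant and 8.53 ± 1.64 in the wild-type (SD, n = 4 each) were almost equal (difference -0.01, SE 0.96), but the 95% interval of -2.20 to 2.17 still allows a level 4.51-fold higher in the mutant (limma adjusted p = 0.996). Retn, which encodes resistin, made by fat cells in mice, had 8.14, 9.47, 9.21 and 11.28 in the mutant, against 8.54, 11.47, 9.07 and 10.68 in the wild-type. Here WT744 came close to the highest arrays, and the difference was -0.42 (SE 0.79, 95% interval -2.21 to 1.38, limma adjusted p = 0.885). Lep, which encodes the satiety hormone leptin, had 3.58, 3.80, 3.69 and 4.14 in the mutant, against 3.60, 4.21, 3.65 and 3.45 in the wild-type. The 95th percentile of 1228 rows annotated to olfactory receptors, taken as a level for dim signals, was 4.11, and only mgR614 and WT676 exceeded it for Lep. In a fit without the filter on dim rows its difference was 0.07 (limma adjusted p = 0.962).

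**Figure D1:**
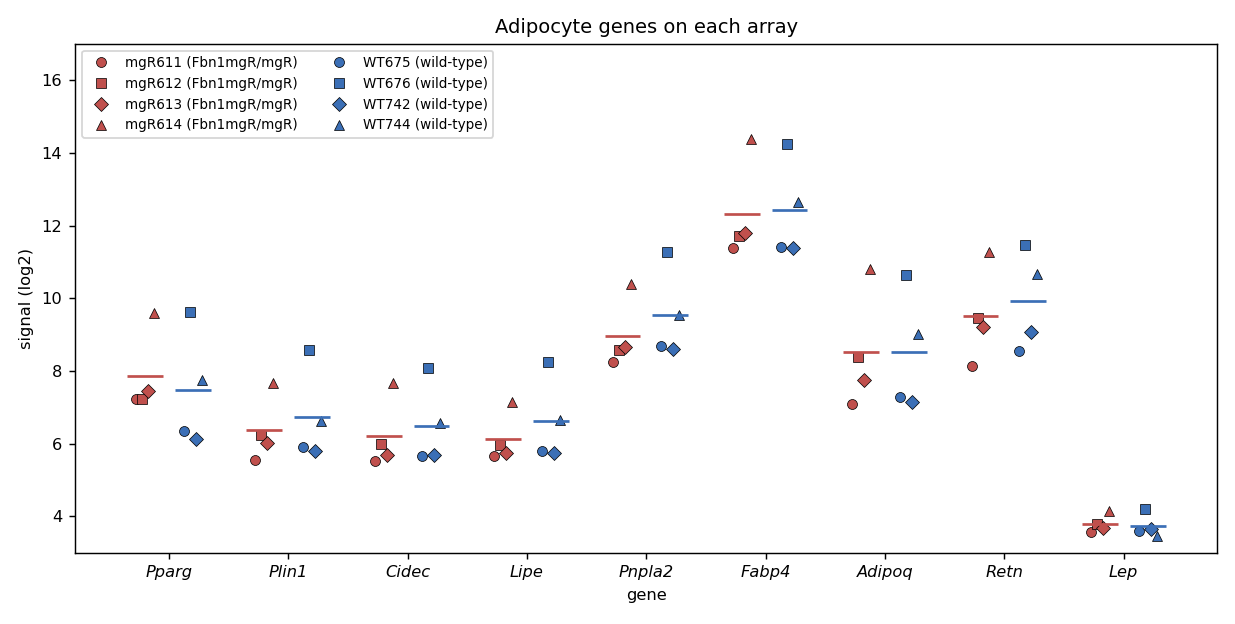
Log2 signal (y axis) of the 9 measured adipocyte genes (x axis) on each array, with Fbn1mgR/mgR in red on the left and wild-type in blue on the right of each gene; a symbol is 1 array and a bar is the mean of 4. The red triangle (mgR614) and the blue square (WT676) are the 2 highest points for all 9 genes.

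The range within a genotype was from 2.77-fold (Lipe) to 13.2-fold (Adipoq) among the mutant arrays and from 5.35-fold (Cidec) to 11.3-fold (Pparg) among the wild-type arrays, over the 8 tested genes. Their SD pooled over the genotypes was 0.957 to 1.63, against a median of 0.218 and a 90th percentile of 0.460 over all tested rows. Adipoq and Pparg each varied more than 99.8% of tested rows, and Lipe, the least variable, more than 99.0%. The median SD of the 8 genes was 1.22, and without mgR614 and WT676, which were also highest in brown fat markers, it was 0.467. The standard error of the genotype difference was therefore 0.567 to 0.962 for these genes, against a median of 0.150 over all tested rows.

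The levels of mgR614 and WT676 were not alike for every gene, as single arrays with no replicate of their own. Adipoq was 0.18 and Fabp4 0.15 higher in mgR614 than in WT676 on the log2 scale, and Pparg differed by -0.04, Lep by -0.07 and Retn by -0.19. The droplet and lipase genes lay further apart, with -0.42 for Cidec, -0.90 for Plin1, -0.90 for Pnpla2 and -1.11 for Lipe. Fasn, the fatty acid synthase gene on the list of further adipocyte genes, had 11.85 in mgR614 against 14.50 in WT676, and the desaturase gene Scd1 had 16.06 against 17.01. The brown fat gene Ucp1, which encodes the uncoupling protein of heat production, had 13.92 in mgR614 and 14.62 in WT676, with 8.30 to 8.49 on the other mutant arrays and 5.59 to 10.21 on the other wild-type arrays. Fasn, Scd1 and Ucp1 were chosen for mention after their values were seen.

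Leaving out single arrays moved the sign of the differences. Without mgR614 the 8 differences ran from -1.04 (Pnpla2) to -0.16 (Pparg), and without WT676 they ran from 0.02 (Pnpla2) to 1.13 (Pparg), so that all 8 genes were lower in the mutant in one case and higher in the other, with none past the limma threshold. Without both arrays the differences were 0.56 for Pparg and -0.08 (Adipoq) to -0.49 (Retn) for the other genes, again with 0 of 8 past the threshold, where 0.349% of rows were higher and 0.161% lower. With the mean of 13 smooth muscle markers as a covariate, all 8 differences were negative and none passed, where 0.534% of rows were higher and 0.118% lower. This mean was itself lower in the mutant, at 12.121 (SD 0.469) against 12.595 (SD 0.37) in the wild-type. The fit therefore cannot fully separate genotype from smooth muscle signal, and no lower adipocyte signal in the mutant is read from it. Pparg turned to -0.55 in that fit, and the other genes ran from -1.05 (Cidec) to -1.38 (Pnpla2, 95% interval -2.85 to 0.08, limma adjusted p = 0.435), with Adipoq at -1.25, Fabp4 at -1.15, Lipe at -1.10, Plin1 at -1.17 and Retn at -1.27, against a median of -0.03 over all rows.

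A fit with the mean of 17 brown fat markers as a covariate compared the genotypes at equal brown fat signal. The standard error of Fabp4 was 0.185 in that fit against 0.807 without the covariate, and that of Adipoq 0.310 against 0.962. The marker list was chosen with earlier results of these data known. Its mean was highest on mgR614 (8.446) and WT676 (8.571), as were the adipocyte genes. Such a covariate takes up the spread it shares with these genes, so the smaller standard errors are not a finding of their own. In this fit Pnpla2 differed by -0.48 (95% interval -0.85 to -0.11, limma adjusted p = 0.221) and Pparg by 0.51 (95% interval 0.06 to 0.96, limma adjusted p = 0.277). Lipe differed by -0.41 (95% interval -0.83 to 0.005, limma adjusted p = 0.347), and Fabp4 by 0.00 (95% interval -0.43 to 0.43). Adipoq turned to 0.11 (95% interval -0.61 to 0.83, limma adjusted p = 0.924). Thus 0 of 8 genes were higher, where 1.22% of all rows were, and 0 were lower, where 0.552% were; at an unadjusted p under 0.05, 1 of 8 was higher (Pparg) and 1 lower (Pnpla2), where 7.71% of all rows were higher and 6.98% lower.

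**Figure D2:**
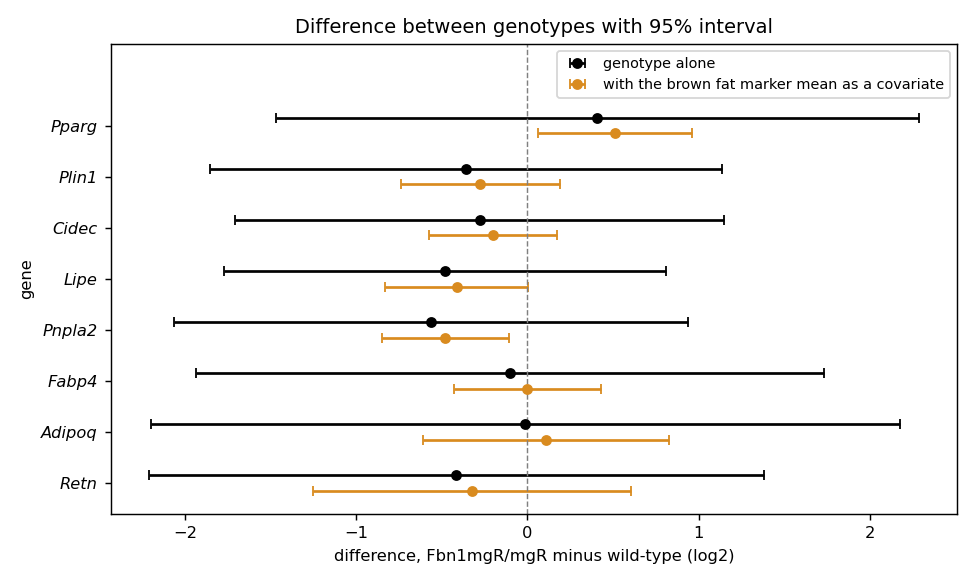
Difference in log2 signal, Fbn1mgR/mgR minus wild-type (x axis), for the 8 tested adipocyte genes (y axis), with 95% intervals from limma; black is the fit on genotype alone and orange the fit with the brown fat marker mean as a covariate. All black intervals cross 0, and the orange intervals are narrower, with those of Pparg (0.06 to 0.96) and Pnpla2 (-0.85 to -0.11) lying beside 0 before adjustment for the number of rows tested.

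The adipocyte genes followed each other closely across arrays. Their likeness is given as Pearson's r between deviations from the genotype means, as a description over 8 arrays that share these 2 high arrays. Over the 28 pairs of tested genes r was 0.907 to 0.992, with a median of 0.978, and over the 6 arrays without mgR614 and WT676 it was 0.792 to 0.992, with a median of 0.940. Against the mean of the other 7 genes, Cidec had the highest r at 0.995 and Retn the lowest at 0.947. Pparg was the least alike without the high arrays, at 0.890 over 6 arrays. Of all tested rows, 1.51% had an r over 0.9 with the mean of the 8 genes.

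Among 12639 other named genes, the 12 whose pattern was most like this mean were Otop1, Dgat2, Lgals12, Adig, Apoc1, Fam13a, B3galt2, Hacd2, Lpl, Slc25a35, Ndufv1 and Sh2b2, with r from 0.988 to 0.994 over 8 arrays and 0.919 to 0.987 over 6. Of these, 6 stood on the lists of further adipocyte genes or brown fat markers, which were chosen with earlier results of these data known. Dgat2, which encodes an enzyme of triglyceride synthesis, had 8.23, 9.74, 8.79 and 12.93 in the mutant, against 9.0, 13.93, 8.59 and 10.75 in the wild-type. Lpl, which encodes lipoprotein lipase, had 8.05, 8.77, 8.47 and 10.31 in the mutant, against 7.94, 10.00, 7.86 and 8.55 in the wild-type. Otop1, which encodes a proton channel found in brown fat, had 4.68, 5.10, 4.98 and 7.23 in the mutant, against 4.51, 8.13, 4.55 and 6.00 in the wild-type. None of the 12 passed the limma threshold between genotypes. The 5 genes with the most opposite pattern were Clba1, Snx18, Sh3bgr, Zswim4 and H2-Pb, with r from -0.981 to -0.934.

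**Figure D3:**
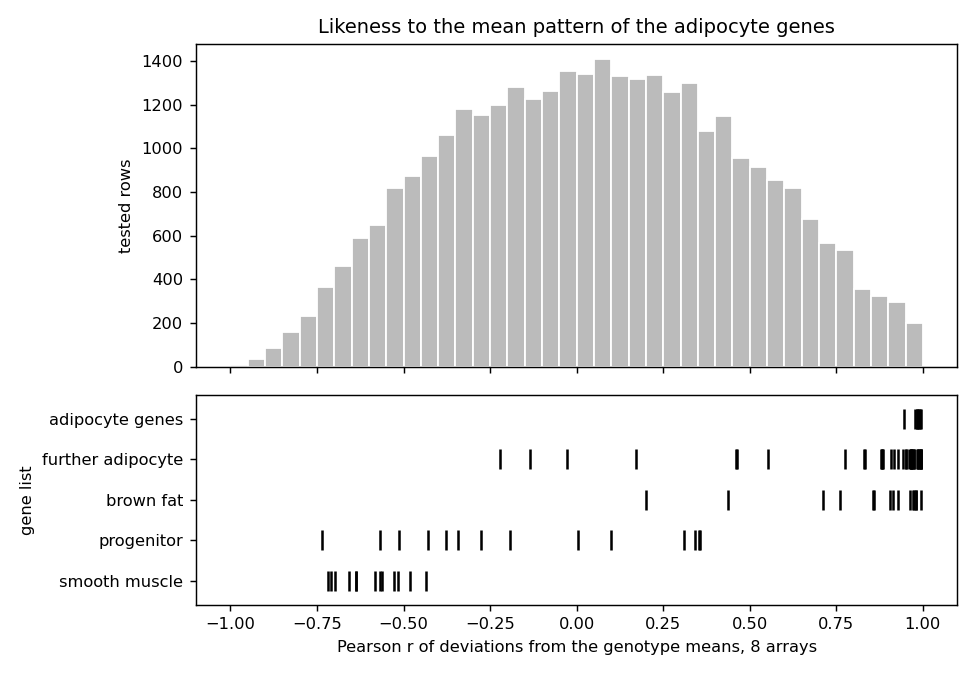
Top, number of tested rows (y axis) by Pearson's r between their deviations from the genotype means and the mean deviation of the 8 tested adipocyte genes over 8 arrays (x axis); bottom, the same r for single genes of 5 lists, each adipocyte gene set against the mean of the other 7. The adipocyte genes lie between 0.947 and 0.995, and the smooth muscle markers between -0.719 and -0.436.

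A wider list of 40 adipocyte genes, none of them among the 10, had 38 with a row and 37 tested. For 29 of the 38, mgR614 and WT676 were the 2 highest arrays, and 23 of the 37 had an r over 0.9. In limma 1 rose and 1 fell, where 1.4% of all tested rows were higher and 0.464% lower. Before adjustment 1 was higher and 4 were lower at p under 0.05, where 7.59% of all tested rows were higher and 6.68% lower. These small counts are not read as a result about the list. The median difference was -0.29 against -0.02 over all tested rows. Both called genes departed from the array pattern of fat, with r of -0.14 for Sncg and -0.22 for Rbp4. Sncg, which encodes gamma-synuclein and is also made by peripheral neurons, had 13.43, 14.20, 14.64 and 13.44 in the mutant, against 11.11, 11.57, 11.63 and 10.91 in the wild-type. All mutant arrays stood above all wild-type arrays, and the difference was 2.62 (SE 0.30, limma adjusted p = 0.00555), or 6.16-fold. Rbp4, which encodes the retinol carrier of plasma and is made by liver as well as fat, had 13.56, 13.45, 12.86 and 13.18 in the mutant, against 14.48, 14.35, 14.47 and 14.81 in the wild-type, and fell by 1.27 (SE 0.17, limma adjusted p = 0.00941). Without both mgR614 and WT676 Rbp4 missed the threshold at a difference of -1.30 (limma adjusted p = 0.0736), as it did with the smooth muscle covariate (limma adjusted p = 0.0590). Plin4, a further droplet coat gene, had a difference of -0.64 (limma adjusted p = 0.238), and Rarres2, which encodes the adipokine chemerin, -0.57 (limma adjusted p = 0.268).

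Receptors for the secreted products did not share the pattern, apart from 1. The r with the mean of the adipocyte genes was 0.974 for Adipor2. It was negative for the others, at -0.775 for Cap1, -0.699 for Cdh13, -0.587 for Adipor1 and -0.351 for Lepr. Adipor2, an adiponectin receptor gene, had 11.06, 11.51, 11.48 and 12.15 in the mutant, against 11.42, 12.66, 11.43 and 11.73 in the wild-type, with mgR614 and WT676 again the highest of their genotypes. The other adiponectin receptor gene Adipor1 stayed within 6.77 to 7.03 in the mutant and 6.99 to 7.07 in the wild-type. Cdh13, which encodes the adiponectin-binding T-cadherin, ranged from 10.10 to 11.21 in the mutant and from 10.84 to 11.20 in the wild-type. The leptin receptor gene Lepr ranged from 7.08 to 8.31 in the mutant and from 7.15 to 7.51 in the wild-type, and Cap1, reported as a resistin receptor in human cells, from 10.73 to 11.44 in the mutant and from 10.92 to 11.17 in the wild-type. Of these 5 genes 0 passed in limma, also at an unadjusted p under 0.05, with differences of -0.37 (Cdh13, 95% interval -0.87 to 0.13) to 0.27 (Lepr, 95% interval -0.32 to 0.86).

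Most markers of brown fat moved with the adipocyte genes, with an r over 0.9 for 9 of 15 tested, against 1.51% of all tested rows. The lowest r were 0.199 for Dio2, which was highest in WT742, 0.436 for Lhx8 and 0.711 for Fabp3. For 12 of 17 brown fat markers mgR614 and WT676 were the 2 highest arrays, and the mean of the list was 6.34, 6.37, 6.40 and 8.45 in the mutant, against 6.45, 8.57, 5.91 and 6.95 in the wild-type. None of these 17 was at the dim level on all arrays. Zic1, which counts among the 12, ranged from 4.07 to 4.3 and Lhx8 from 3.93 to 4.31, close to that level of 4.11. Elovl3 exceeded it only in WT676, and Slc27a2 only in mgR614 and WT676. In limma 0 of 15 tested brown fat markers differed, also at an unadjusted p under 0.05, and their median difference was -0.06. The 4 with the smallest p were Lhx8 at 0.19, Acot11 at -0.18, Ppargc1a, a coactivator gene of mitochondrial biogenesis, at -0.67, and Fabp3, a fatty acid carrier gene, at -0.78, with limma adjusted p from 0.397 to 0.675. Fabp3 passed as lower with the smooth muscle covariate (-1.94, limma adjusted p = 0.0346), a fit that cannot fully separate genotype from smooth muscle signal. It was at -0.33 when all its rows were averaged. Without mgR614 it was at -1.27 and without WT742 at -1.25, against -0.49 without WT675 and -0.43 without WT676. Genes of adipocyte progenitors did not follow, with mgR614 and WT676 the 2 highest arrays for 0 of 16. In that list Fmo2 fell by 1.71 (SE 0.28, limma adjusted p = 0.0227) and Anxa3 rose by 1.33 (SE 0.27, limma adjusted p = 0.0479). Zfp423, a transcription factor gene of the fat lineage, was at -0.76 (limma adjusted p = 0.0831) and Icam1 at 0.67 (limma adjusted p = 0.112). Fmo2 missed the threshold without mgR613 (limma adjusted p = 0.0705), WT675 (0.0748), WT676 (0.0678) or WT744 (0.0784). Anxa3 missed it without mgR613 (limma adjusted p = 0.107), mgR614 (0.0999), WT675 (0.119), WT676 (0.119), WT742 (0.0702) or WT744 (0.136). With the smooth muscle covariate Fmo2 was at a limma adjusted p of 0.104 and Anxa3 at 0.0614, and without both mgR614 and WT676 at 0.0882 and 0.208. Anxa3 also missed the threshold with robust variance estimates (limma adjusted p = 0.0526), no filter (0.0694), quantile normalization (0.0867) and the brown fat covariate (0.0501).

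Over the 12 lists of other cell types, including the progenitors, 0 of 97 genes had mgR614 and WT676 as the 2 highest arrays. Part of the pattern was shared, as the mesothelial mean was highest in WT676 (12.385), next to WT675 (12.238). In the mutant it was 10.933 in mgR614, below mgR612 (11.682), and the median r of that list was 0.404. The endothelial marker Kdr was also highest in WT676, with an r of 0.833. In limma 10 of 13 macrophage markers rose and 0 fell, 1 of 9 fibroblast markers rose, 1 of 6 skeletal muscle markers fell, and 0 of the 13 smooth muscle, 9 endothelial, 6 cardiac muscle, 1 nerve, 6 mesothelial, 5 B cell, 4 thymocyte and 2 red cell markers tested passed the threshold. At an unadjusted p under 0.05, 4 smooth muscle, 2 endothelial and 1 mesothelial markers were lower, and 2 B cell markers higher. Of all tested rows, 1.4% were higher and 0.464% lower at the limma threshold, and 7.59% and 6.68% at that unadjusted p. The calls of 1 gene in the fibroblast and the skeletal muscle list are not read as changes of those lists. The smooth muscle list had a negative r for all 13 genes, from -0.719 to -0.436, with a median of -0.583. A negative r was not particular to it, as the receptor list had a median of -0.587. Of the other lists of other cell types, only the mesothelial (0.404), macrophage (0.349) and thymocyte (0.211) lists had a positive median. The smooth muscle mean was 12.60, 12.24, 12.16 and 11.48 in the mutant, against 12.23, 12.34, 13.02 and 12.78 in the wild-type. Thus mgR614 was the lowest of the 8 arrays and WT676 was in the middle of the range. WT744, the third array for most adipocyte genes, was high here as well. The part of a changed share of fat in the genotype differences of other genes was not tested.

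**Figure D4:**
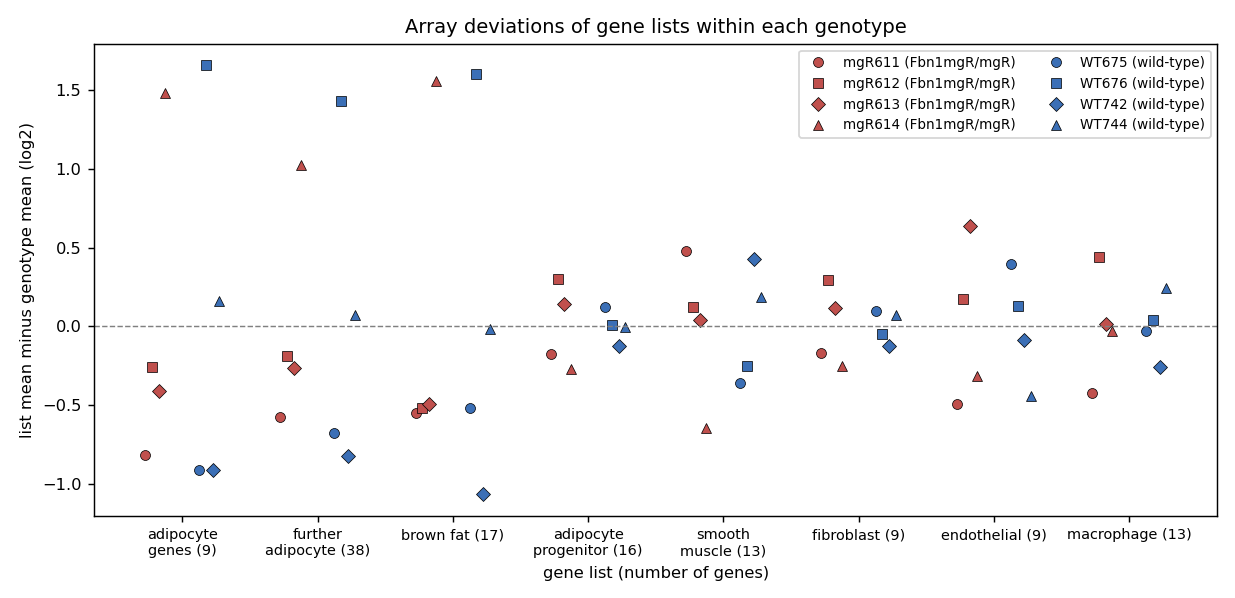
Mean log2 signal of each gene list minus the mean of its genotype (y axis) on each array, by list with its number of genes (x axis), Fbn1mgR/mgR in red on the left and wild-type in blue on the right; symbols are arrays. The red triangle of mgR614 and the blue square of WT676 stand far above 0 for the 3 fat lists and not for the progenitor, smooth muscle, fibroblast, endothelial or macrophage lists.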

How the data were processed

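Total RNA of 8 aortic samples was measured on Affymetrix Clariom D mouse arrays. The deposited values are log2 signals per transcript cluster made by the authors with Transcriptome Analysis Console, per the submitters' processing notes; the normalization is not given in the sources used here. They ran from 2.11 to 19.93, and 0 columns were left unused. Of the rows, 30604 had 1 gene symbol, 2146 several and 33206 none; only rows with 1 symbol were named. By gene ID 22818 rows were matched to RefSeq, which updated 827 symbols.

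Rows with a mean above the median of row means, 4.01, were fitted by linear models (limma 3.58.1, R 4.3.3) whose moderated variances followed signal intensity; p-values were adjusted by Benjamini-Hochberg over 32957 rows, with a threshold of 0.05. The fit was tested on simulated data. Pearson's r and figures were made in Python 3.11.15 with pandas 2.3.3 and matplotlib 3.10.9. Named genes were all members with a row, the 12 most and 5 least alike among 12639 genes, all receptors and up to 4 genes of each fat list with the smallest p. The members and lists were chosen with earlier results of these data known. Alternatives covered the variance model, array weights, filter, normalization, covariates, row choice, threshold and leaving out arrays. Cfd and Fbn1 were not analysed here.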

Additional observations from a re-analysis of the deposited data

Results flagged for a closer look

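Of 94 groups of 4 arrays looked at, 7 held an array standing apart, because its gap to the nearest other array took up more of the group's range than Dixon's critical value for 4 samples allows; chance alone flags about 1 group in 20. In 6 of the 7 the array was mgR614. For Fabp4 the ratio was 0.86 (14.39 in mgR614 against 11.38 to 11.80 on the other mutant arrays), and for Pparg 0.899 (9.59 against 7.22 to 7.46). Among the genes with a similar pattern it was 0.835 for Otop1 (7.23 against 4.68 to 5.10) and 0.85 for Hacd2 (14.06 against 12.93 to 13.10). The mean of the brown fat markers gave 0.973 (8.45 against 6.34 to 6.40). Snx18, one of the genes with the opposite pattern, was lowest in mgR614 with a ratio of 0.891 (9.08 against 9.57 to 9.63). The mean of the thymocyte markers was highest in WT744 with a ratio of 0.848 (8.13 against 6.40 to 6.67 on the other wild-type arrays). These groups share arrays and many of the genes move together. Otop1, Hacd2 and Snx18 were picked by their r with the adipocyte genes, so their flags are not separate from those of these genes. The rate of 1 group in 20 therefore cannot be set against the count of flagged groups.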

How the results depend on the processing

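Over 176 results for the 8 tested genes under other settings, 157 kept their direction, 19 turned it and 0 passed the threshold. The limma adjusted p ran from 0.221 to 1.0, and 17 of the 19 came from leaving out 1 array. Many of the 157 could not turn, because settings that change only the variance model, the filter or the threshold leave differences unchanged. Leaving out each array in turn, the differences ran from -0.78 to 0.69 for Adipoq, -0.76 to 0.25 for Cidec, -0.79 to 0.50 for Fabp4, -0.82 to 0.063 for Lipe, -0.79 to 0.26 for Plin1, -1.04 to 0.022 for Pnpla2, -0.16 to 1.13 for Pparg, -1.0 to 0.10 for Retn and -0.46 to 0.023 for Adipor2. Adipoq turned to 0.11 with the brown fat covariate and Pparg to -0.55 with the smooth muscle covariate, under which the other 7 genes ran from -1.38 to -1.05; the cause was not tested. The count of further adipocyte genes that fell, 1 as reported, was 0 with the smooth muscle covariate, 0 without both mgR614 and WT676, and 4 at an unadjusted p under 0.05. The median SD within genotypes, 1.22 as reported, ran from 0.939 (without WT676) to 1.34 when 1 array was left out and was 0.467 without both arrays, a setting chosen after seeing the data. The median r between genes, 0.978 as reported, was 0.940 without both arrays, 0.950 with deviations from the mean of all 8 arrays, and 0.977 to 0.983 when 1 array was left out. Over all rows, 460 higher and 153 lower as reported, leaving out 1 array gave 209 to 441 higher and 56 to 121 lower, and the smooth muscle covariate gave 176 and 39. No paired analysis was possible because the genotypes share no replicate numbers. Signal limits Lep, which lay at the dim level on 6 arrays.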
